A study of Mus musculus with 6 samples.

Results

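Mitochondria in neurons divide, fuse and travel along microtubules, and the mRNAs of 10 genes that carry out these steps were examined here: Dnm1l, Fis1 and Mff for fission, Mfn1, Mfn2 and Opa1 for fusion, and Rhot1, Rhot2, Trak1 and Trak2 for transport. They were chosen by name from the 21958 protein-coding genes of the deposited count table, by their roles and not by a rule on measured values. Earlier results of these data were known when they were chosen. All 10 passed the filter on low counts and were among the 12255 genes tested. The material was synaptoneurosomes, a filtered and centrifuged brain fraction enriched in pinched-off synapses, from the hippocampus and adjacent cortex of wild-type FVB mice of 6 to 8 weeks. The mice were males and tissue of several animals was pooled in a preparation, according to the study's methods. The polyribosome group (3 libraries) held RNA of sucrose gradient fractions with light and heavy polyribosomes, from synaptoneurosomes given NMDA (50 µM) and glutamate (10 µM) for 30 sec, then APV (120 µM), a blocker of the NMDA receptor, for 20 min. The total group (3 libraries) held total RNA of unstimulated synaptoneurosomes. The groups differed in stimulation and in fraction. By the study's methods, stimulated aliquots were also warmed, while unstimulated controls stayed on ice with cycloheximide, an inhibitor of translation. These differences cannot be told apart in any value below. A higher value means a larger share of the library on polyribosomes, and since synaptoneurosomes are a bulk sample, a change in the makeup of the material and a change within one kind of terminal cannot be told apart either.

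As background, fission is driven by the dynamin-like GTPase Drp1, the product of Dnm1l, which is drawn from the cytosol to the outer mitochondrial membrane by receptors such as Mff and Fis1 and constricts the organelle there. Fusion of the outer membranes needs the mitofusins Mfn1 and Mfn2, and fusion of the inner membranes needs Opa1, which also shapes the cristae. For transport, the Miro GTPases (Rhot1 and Rhot2) on the outer membrane bind the adaptors Trak1 and Trak2, which connect them to kinesin and dynein motors. In neurons these proteins set the size of mitochondria and how many of them reach axons and dendrites.

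Translation of an mRNA begins at its start codon, and the bases around it are shown first because polyribosome association was the readout. Each sequence below was read from the main Gencode vM21 transcript (GRCm38) of its gene and runs 5′ to 3′. It starts 10 bases before the ATG, in capitals, and ends 7 bases after it. The 10 genes have 3 to 10 coding transcripts each, and start contexts of the others were not examined. The paralogous pairs of transport genes are given first, followed by the fission GTPase and the inner membrane fusion GTPase.
Rhot1: cgtgcgctccATGcgtgcgg
Rhot2: ggcagcagccATGcggcgcg
Trak1: gtgtctgcccATGgcattgg
Trak2: aggattctgcATGagtcaat
Dnm1l: ttcgggggtcATGgaggcgc
Opa1: ctctggcgggATGtggcgag
The first base of the ATG lies at position 80209248 of chromosome 11 (plus strand) for Rhot1, 25844436 of chromosome 17 (minus strand) for Rhot2, 121367104 of chromosome 9 (plus strand) for Trak1 and 58946337 of chromosome 1 (minus strand) for Trak2. For Dnm1l it lies at position 16358865 of chromosome 16 (minus strand), and for Opa1 at 29579540 of the same chromosome (plus strand). The commonly cited context has A or G at -3 and G at +4, counting the A of the ATG as the first base. Among the 11933 tested genes with a start context, 86.8% had A or G at -3, 52.7% had G at +4, 45.7% had both and 6.21% had neither. Of the 10 genes, 7 had A or G at -3, 5 had G at +4, 4 had both (Dnm1l, Fis1, Mff and Mfn1), and 2 had neither (Rhot1 and Trak2). The median log2 fold change was 0.01 over the 5454 tested genes with both and -0.04 over the 741 genes with neither, so genes of both kinds lay close to 0.

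Positions of the genes are given in GRCm38 as in the deposited table, with exons and coding length from the main Gencode vM21 transcript. Dnm1l is at chr16:16312235-16359030 with 19 exons and a coding sequence of 2136 bases, Fis1 at chr5:136953275-136966234 with 5 exons and 456 coding bases, and Mff at chr1:82724890-82752394 with 9 exons and 873 coding bases. Mfn1 is at chr3:32529465-32579239 (18 exons, 2223 coding bases), Mfn2 at chr4:147873599-147904704 (20 exons, 2271 coding bases) and Opa1 at chr16:29579334-29654884 (29 exons, 2880 coding bases). Rhot1 is at chr11:80209019-80267907 (19 exons, 1893 coding bases), Rhot2 at chr17:25838457-25844851 (19 exons, 1860 coding bases), Trak1 at chr9:121366958-121474916 (16 exons, 2817 coding bases) and Trak2 at chr1:58900449-58973430 (16 exons, 2739 coding bases). The span of Rhot2, introns included, shares 3307 bases with that of the same-strand protein-coding model Gm20683 and 81 bases with that of Wdr90. Both were counted as genes of their own. Overlap of exons was not examined, but reads of Rhot2 may have been split or dropped, so its values are uncertain. Dnm1l, Mff, Mfn2 and Rhot2 also overlap non-coding models on the other strand, and the sources used here do not give whether strand was used when reads were counted.

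Libraries held 5294482 to 7361580 counts in the polyribosome group and 1044955 to 3738022 in the total group, with replicate 3 the shallowest in both groups. The 10 genes had between 16 counts (Rhot2 in total replicate 3) and 2403 counts (Trak2 in polyribosome replicate 1) in a library. Levels are given as CPM, counts scaled to library size with the TMM method. Groups were compared with the quasi-likelihood test of edgeR with group as the only term, adjusted by Benjamini-Hochberg over all genes tested, at a threshold of 0.01, and a negative log2 fold change means a lower share of the polyribosome libraries. Libraries with the same replicate number shared a header prefix and deviated together from their group means, and the study's methods divide a preparation into aliquots without tying the numbers to preparations. They were taken as pairs, so differences within pairs are given too, and where a fit with the replicate as a block changed a call, its value stands beside the first. P-values rest on the spread between these libraries, which may be technical in part, and edgeR pools each gene's spread with that of other genes. With the block this pooling was strong. The SE was 0.13 for Dnm1l, Trak2 and Mff, while the SDs of their pair differences were 0.09, 0.37 and 0.02. A blocked p-value therefore says little about a single gene's own spread between pairs.

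None of the 10 genes passed the threshold in the comparison of polyribosome and total RNA. In edgeR 0.71% of all genes tested passed it as higher on polyribosomes and 2.36% as lower. At an unadjusted p under 0.05, 4 of the 10 genes were lower on polyribosomes (Dnm1l, Opa1, Rhot1 and Trak2) and 0 were higher, against 17.1% and 15.4% of all genes. In DESeq2 also, 0 of the 10 passed, against 3.31% of the genes as higher and 3.83% as lower. The log2 fold changes were negative for 5 genes and positive for 5, from -0.53 (Dnm1l) to 0.24 (Mfn2), with a median of -0.18, and over all genes tested 50.1% were positive. Dnm1l, Mff, Opa1, Rhot1 and Trak2 were lower on polyribosomes in all 3 pairs, as were 30.6% of all genes, and Mfn1 and Mfn2 were higher in all 3 pairs, as were 30.2%. Scaling by total counts alone moved the median of all genes by -0.11 and turned Fis1, Mfn1 and Rhot2 to -0.01, -0.02 and -0.07, with the others on the same side of 0. In an alternative chosen after seeing the data, without both libraries of replicate 3, 2 genes passed, Dnm1l (log2 fold change -0.57, adjusted p = 0.00597 in edgeR) and Opa1 (-0.55, adjusted p = 0.00578), both lower, against 5.25% of all genes as lower and 3.61% as higher.

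With the replicate as a block, 3 of the 10 genes fell on polyribosomes, Dnm1l, Opa1 and Trak2, and 0 rose, against 13.2% and 11.8% of all genes. Without replicate 1 the blocked fit called Trak2 (log2 fold change -0.56, adjusted p = 0.00746 in edgeR) and none of the others, and without replicate 2 it called 0. Of all genes it then called 7.47% and 5.52% as lower and 5.15% and 4.19% as higher. Without replicate 3 it called Dnm1l, Opa1 and Mff but not Trak2 (-0.21, adjusted p = 0.0767 in edgeR), against 12.8% of all genes as lower and 11.7% as higher. DESeq2 with the same block called 0 of the 10, with adjusted p from 0.0113 (Opa1) upward, against 5.97% of the genes as lower and 6.91% as higher.

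**Figure D1:**
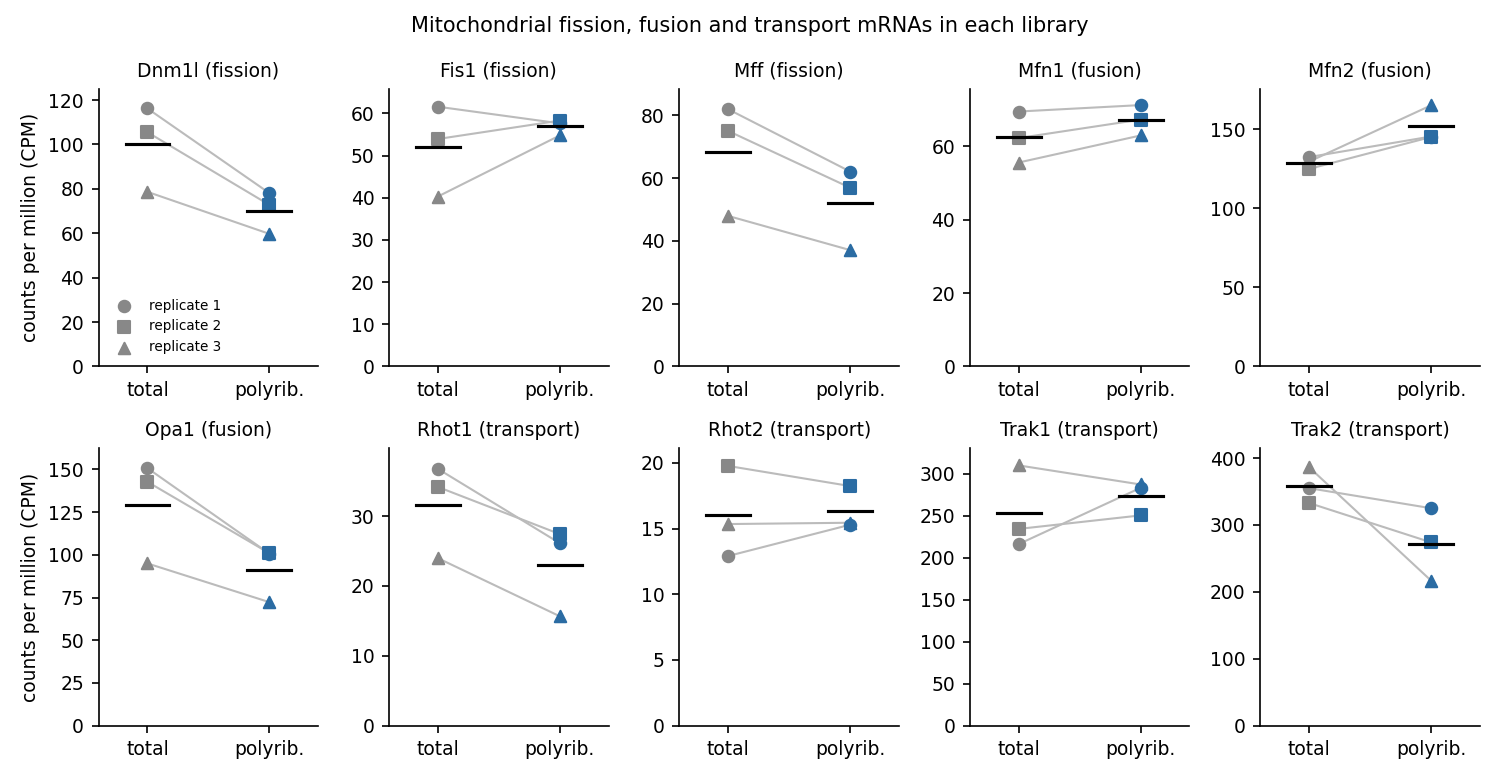
CPM (vertical axes, each from 0) of the 10 genes in the 3 total and 3 polyribosome (polyrib.) libraries; grey lines join libraries with the same replicate number and black bars are group means. Dnm1l, Mff, Opa1, Rhot1 and Trak2 slope down in all 3 pairs (30.6% of all genes did), and Mfn1 and Mfn2 slope up in all 3 (30.2% did). Mfn1 was at -0.02 on the log2 scale with total counts alone. Only Dnm1l and Trak2, lower, and Mfn2, higher, have groups that do not overlap, against 18.9% and 17.4% of all genes.

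Among the fission genes, Dnm1l and Mff were lower on polyribosomes in each pair and Fis1 was not. Dnm1l had 78.1, 72.8 and 59.7 CPM in polyribosome replicates 1 to 3 and 116.2, 105.5 and 78.6 CPM in the total libraries. The groups did not overlap, which 18.9% of all genes shared in this direction, and its highest polyribosome value, in replicate 1, lay just below its lowest total value, in replicate 3. The means were 70.2 ± 9.44 and 100.1 ± 19.4 CPM (SD, n = 3 each), a log2 fold change of -0.53 (SE 0.18, 95% interval -0.92 to -0.15, adjusted p = 0.0589 in edgeR). The pairs differed by -0.57, -0.54 and -0.40 on the log2 scale, and with the replicate block the log2 fold change was -0.52 (SE 0.13, adjusted p = 0.000516 in edgeR).

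Mff, the membrane receptor that recruits Drp1, had 62.1, 56.9 and 37.1 CPM on polyribosomes and 82.0, 75.0 and 48.0 CPM in total RNA. Replicate 3 was the lowest in both groups, so the groups overlapped although each polyribosome library lay below its partner. The pair differences were -0.40, -0.40 and -0.37, the most even of the 10 genes (SD 0.02), and the log2 fold change was -0.43 (SE 0.22, adjusted p = 0.198 in edgeR). With the block it was -0.39 (SE 0.13, adjusted p = 0.012 in edgeR), just outside the threshold. Without polyribosome replicate 3 and with group as the only term, it was -0.25.

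Fis1, a small tail-anchored protein of the outer membrane, had 57.6, 58.3 and 54.8 CPM on polyribosomes and 61.6, 53.9 and 40.3 CPM in total RNA. Its polyribosome libraries were close to each other and lay inside the range of the total libraries. The pairs differed by -0.10, 0.11 and 0.44, and the log2 fold change was 0.10 (95% interval -0.28 to 0.47, adjusted p = 0.75 in edgeR). Its sign turned without replicate 3 (-0.01) and with an offset for GC content and length (-0.29), so no direction can be given.

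Among the fusion genes, Opa1 of the inner membrane had lower values on polyribosomes in each pair, and the mitofusins of the outer membrane had higher ones. Opa1 had 100.6, 100.9 and 72.3 CPM on polyribosomes and 150.7, 142.7 and 94.9 CPM in total RNA. Replicate 3 was again the lowest in both groups, and its total library lay below polyribosome replicates 1 and 2. The means were 91.3 ± 16.5 and 129.4 ± 30.2 CPM (SD, n = 3 each), with a log2 fold change of -0.52 (SE 0.20, 95% interval -0.95 to -0.10, adjusted p = 0.0844 in edgeR). The pair differences were -0.58, -0.50 and -0.39, and with the replicate block the log2 fold change was -0.50 (SE 0.12, adjusted p = 0.00067 in edgeR).

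Mfn2, which also tethers mitochondria to the endoplasmic reticulum, had 145.4, 145.1 and 165.1 CPM on polyribosomes and 132.4, 124.9 and 129.5 CPM in total RNA. All 3 polyribosome libraries lay above all 3 total libraries, as did those of 17.4% of all genes. The log2 fold change was 0.24 (SE 0.16, 95% interval -0.10 to 0.57, adjusted p = 0.318 in edgeR), and the pairs differed by 0.14, 0.22 and 0.35. With the block the adjusted p was 0.151 in edgeR, so the difference did not pass the threshold in either fit.

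Mfn1 had 71.3, 67.3 and 63.0 CPM on polyribosomes and 69.5, 62.3 and 55.6 CPM in total RNA. Each polyribosome library was slightly above its partner on this scale, the groups overlapped, and with total counts alone the log2 fold change was -0.02. The pair differences were 0.04, 0.11 and 0.18, and the log2 fold change was 0.09 (SE 0.16, 95% interval -0.26 to 0.44, adjusted p = 0.744 in edgeR).

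Among the transport genes, Rhot1 and Trak2 were lower on polyribosomes in each pair, while their paralogues Rhot2 and Trak1 had group means that differed by less than the spread of the libraries. Trak2, an adaptor tied mainly to dynein-driven and dendritic movement, had 325.1, 274.1 and 217.0 CPM on polyribosomes and 355.1, 332.9 and 386.5 CPM in total RNA. The groups did not overlap, which 18.9% of all genes shared in this direction, and replicate 3 held both the lowest polyribosome value and the highest total value. The log2 fold change was -0.39 (SE 0.18, 95% interval -0.78 to -0.01, adjusted p = 0.148 in edgeR). The pairs differed by -0.13, -0.28 and -0.83, the widest spread of the 10 genes (SD 0.37). With the replicate block the log2 fold change was -0.40 (SE 0.13, adjusted p = 0.00815 in edgeR). That SE was close to those of Dnm1l and Mff, whose pairs were more even, so it does not reflect the spread of Trak2 itself. Without both libraries of replicate 3, the log2 fold change with group as the only term was -0.21, and without polyribosome replicate 3 alone it was -0.25.

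Trak1, the paralogue with a kinesin-binding role in axons, had 283.0, 250.2 and 287.0 CPM on polyribosomes and 216.0, 234.1 and 309.7 CPM in total RNA. The highest and the lowest of the 6 values were both total libraries. The pairs differed by 0.39, 0.10 and -0.11, and the log2 fold change was 0.12 (95% interval -0.26 to 0.50, adjusted p = 0.689 in edgeR).

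Rhot1, encoding Miro1, had 26.1, 27.4 and 15.7 CPM on polyribosomes and 36.8, 34.2 and 24.0 CPM in total RNA. Each polyribosome library lay below its partner, by -0.49, -0.32 and -0.62 on the log2 scale, and total replicate 3 lay below 2 of the polyribosome libraries. The log2 fold change was -0.50 (SE 0.23, adjusted p = 0.148 in edgeR) and -0.44 with the block (SE 0.15, adjusted p = 0.0168 in edgeR), which missed the threshold in both fits. It rested on 25 counts in total replicate 3, and was -0.31 without polyribosome replicate 3 and -0.16 with the block and an offset for GC content and length.

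Rhot2, encoding Miro2, had the lowest mean CPM of these genes in both groups, without correction for length. It had 15.3, 18.2 and 15.4 CPM on polyribosomes and 12.9, 19.8 and 15.3 CPM in total RNA, values that its overlap with Gm20683 makes uncertain. The log2 fold change of Rhot2 was 0.03 (95% interval -0.42 to 0.49, adjusted p = 0.932 in edgeR), on 113, 121 and 75 counts against 52, 59 and 16. The total libraries were on both sides of the polyribosome libraries, and the sign turned in several settings, for example without both libraries of replicate 1 (-0.12).

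Paralogues were next compared within libraries, where a ratio of counts does not depend on how libraries are scaled. The ratios were not adjusted for GC content or length. The ratio of Trak2 to Trak1 was 1.15, 1.10 and 0.756 on polyribosomes and 1.64, 1.42 and 1.25 in total RNA, so Trak2 reads outnumbered Trak1 reads in all total libraries and in 2 of 3 polyribosome libraries. The groups did not overlap, and the log2 ratio differed by -0.54 between polyribosomes and total RNA (pairs -0.52, -0.38 and -0.72), a ratio 0.689 times that of total RNA. Without polyribosome replicate 3 the difference was -0.35. The exact permutation test, two-sided, gave p = 0.1, the smallest possible with 3 against 3, and 0.4 after adjustment over the 4 ratios tested.

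The ratio of Rhot2 to Rhot1 was 0.586, 0.665 and 0.987 on polyribosomes and 0.351, 0.578 and 0.64 in total RNA, higher on polyribosomes in all 3 pairs by 0.74, 0.20 and 0.62 on the log2 scale (exact permutation p = 0.2, adjusted 0.4). The mean difference of 0.52 was 0.26 without total replicate 1 and 0.30 without polyribosome replicate 3. The overlap of Rhot2 with Gm20683 makes this ratio uncertain too. The ratio of Mfn2 to Mfn1 was 2.04, 2.15 and 2.62 against 1.90, 2.01 and 2.33, with pair differences of 0.10, 0.10 and 0.17 (exact permutation p = 0.5, adjusted 0.5). Its mean difference of 0.12 was 0.017 without polyribosome replicate 3, 0.064 without total replicate 1, 0.20 without polyribosome replicate 1 and 0.21 without total replicate 3. The summed counts of the 3 fission genes relative to the 3 fusion genes were 0.623, 0.6 and 0.505 on polyribosomes and 0.737, 0.711 and 0.596 in total RNA. This ratio differed by -0.24 on the log2 scale in each pair (SD 0.002), or 0.846 times that of total RNA. Its spread between replicate numbers made the groups overlap (exact permutation p = 0.3, adjusted 0.4). The mean difference was -0.15 without polyribosome replicate 3. Each sum mixed directions. The log2 fold changes were -0.53 (Dnm1l), -0.43 (Mff) and 0.10 (Fis1) for fission. For fusion they were -0.52 (Opa1), 0.24 (Mfn2) and 0.09 (Mfn1). A sign-flip test over 3 pairs cannot go below 0.25 and gave that value for all 4 ratios.

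**Figure D2:**
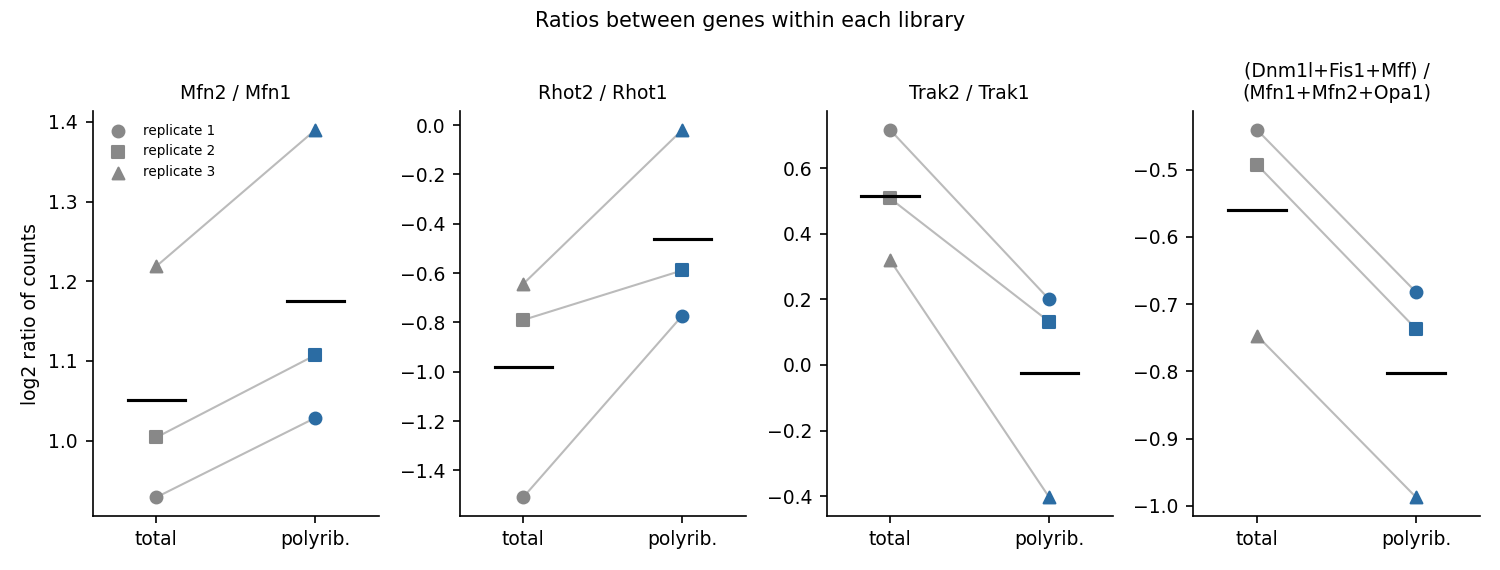
Log2 ratio of counts within each library (vertical axes, not starting at 0) for 3 pairs of paralogues and for the summed fission genes over the summed fusion genes; symbols are replicates, grey lines join libraries with the same number and black bars are group means. The Trak2 to Trak1 ratio is the one whose groups do not overlap, and the fission to fusion ratio differs by -0.24 in each pair.

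Levels of different genes were compared per length, as CPM per kilobase of the longest coding transcript. On polyribosomes Fis1 was the highest with 60.0 ± 1.98 (SD, n = 3), above the range of Trak1 (51.0 ± 3.77). Trak1, Trak2 (44.0 ± 8.74) and Mfn2 (35.0 ± 2.65) followed with overlapping neighbours, all above Mff (24.9 ± 6.33). Mff, Dnm1l (17.7 ± 2.38), Mfn1 (14.7 ± 0.909) and Opa1 (14.7 ± 2.64) each overlapped the next, and Rhot1 (5.41 ± 1.51) and Rhot2 (5.12 ± 0.519) lay below them without separating from each other.

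In total RNA the order by CPM per kilobase opened with Trak2 (57.9 ± 4.35), Fis1 (54.8 ± 11.4) and Trak1 (47.2 ± 9.27), which overlapped. They were followed by Mff (32.7 ± 8.61), Mfn2 (29.7 ± 0.863), Dnm1l (25.2 ± 4.88), Opa1 (20.8 ± 4.84) and Mfn1 (13.7 ± 1.53), each overlapping the next. Rhot1 (7.43 ± 1.59) and Rhot2 (5.02 ± 1.09) were lowest again. In both groups, then, mRNAs of the Trak adaptors stood well above those of the Miro proteins they bind. The values depend on the transcript length used: with the median length of the coding transcripts, Trak2 on polyribosomes was 103.2 and Rhot2 31.7 CPM per kilobase, because short Rhot2 models are annotated. With that length Trak2 and Trak1 (95.4) stood above Fis1 (72.4), so Fis1 was then not the highest.

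Base composition moved with the difference between the groups over the whole table. The genes tested were divided into 10 bins by GC content of the longest coding transcript, and the median log2 fold change went from -0.44 in the bin of lowest GC to 0.42 in the bin of highest GC. The 5 genes with negative log2 fold changes had GC contents of 40.9% to 47.5% (Dnm1l, Opa1, Rhot1, Mff and Trak2 in ascending order). Of the 5 genes with positive values, 4 had a higher GC content than all of these, Mfn2 (53.1%), Fis1 (54.4%), Rhot2 (55.2%) and Trak1 (56.6%). Mfn1 was the exception, with 45.9% GC and a log2 fold change 0.28 above the median of its bin. Dnm1l lay -0.09 from its bin's median and Opa1 -0.23, and 8 of the 10 genes lay below their bins' medians.

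With an offset for GC content and length in the fit, 0 of the 10 genes passed the threshold, with or without the replicate block. Over all genes, 0.246% passed as higher and 0.737% as lower with the offset, and 8.95% and 7.08% with the block and the offset. In that fit the log2 fold change was -0.14 for Dnm1l (adjusted p = 0.394 in edgeR), -0.16 for Opa1 (adjusted p = 0.325) and -0.16 for Trak2 (adjusted p = 0.31). Mff kept more of its difference, with -0.31 (adjusted p = 0.0403 in edgeR), and Mfn1 stood at 0.33 (adjusted p = 0.0282). Thus the calls that Dnm1l, Opa1 and Trak2 had with the block and all 6 libraries were lost when the offset was added.

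**Figure D3:**
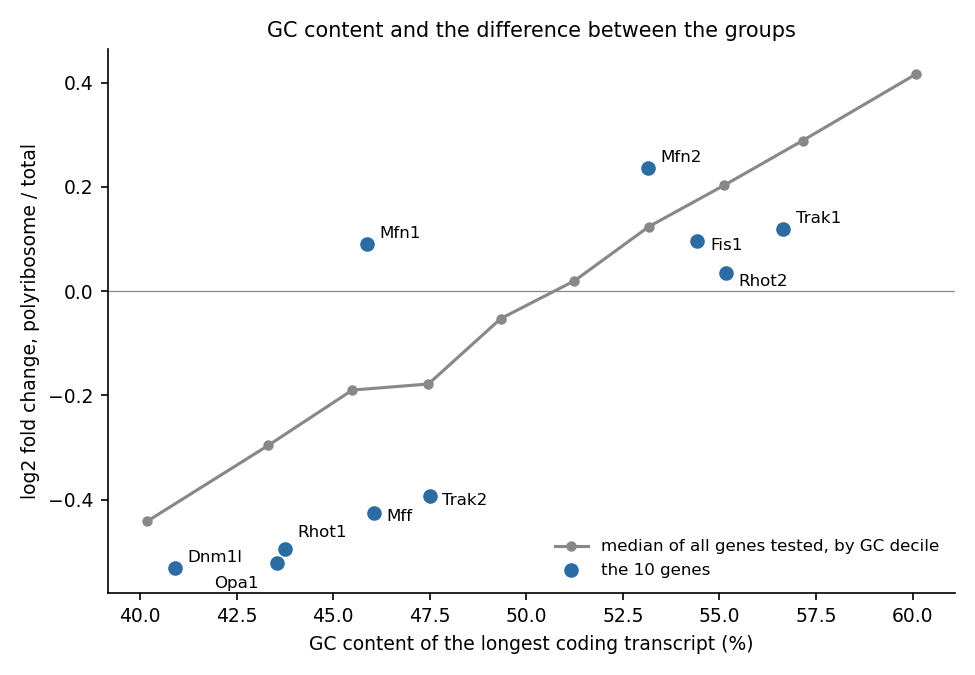
GC content of the longest coding transcript (horizontal axis, percent) against the log2 fold change, polyribosome over total, for the 10 genes (blue) and the median of all genes tested in 10 GC bins (grey line). The line runs from -0.44 to 0.42, 8 of the 10 genes lie below it, and Mfn1 and Mfn2 lie above it.

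**Figure D4:**
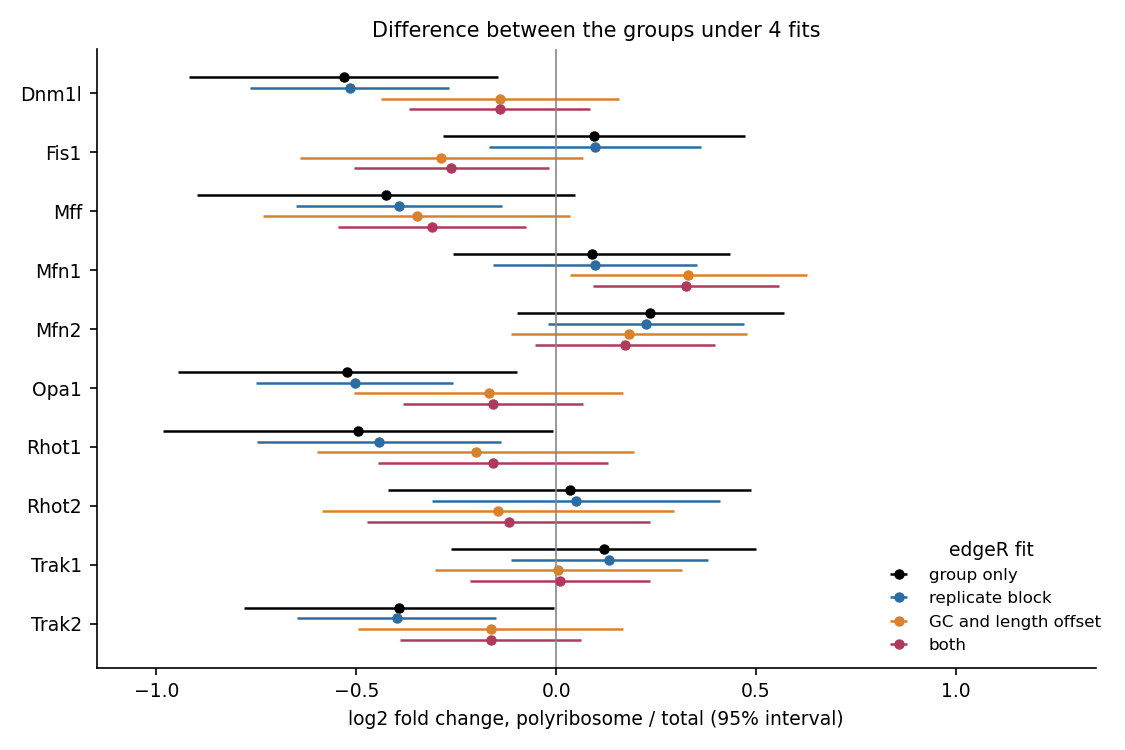
Log2 fold change, polyribosome over total, with 95% intervals (horizontal axis) for each of the 10 genes in 4 edgeR fits: group only, replicate block, GC and length offset, and both. With the block, the intervals of Dnm1l, Opa1, Rhot1, Trak2 and Mff lie below 0, around -0.52, -0.50, -0.44, -0.40 and -0.39. With block and offset, Dnm1l, Opa1, Rhot1 and Trak2 are between -0.14 and -0.16 with intervals that include 0. In that fit the intervals of Mff (-0.31) and Fis1 (-0.26) lie below 0 and that of Mfn1 (0.33) lies above 0.

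Other genes of the same processes were examined as 5 lists. Of 17 tested genes of fission adaptors and regulators, 0 passed the threshold in either direction (median log2 fold change 0.07), and of 13 tested genes of fusion, Opa1 processing and cristae, 0 passed (median 0.03). Of the 16 motor genes 0 passed (median -0.16), and of 14 tested mitophagy genes 0 passed (median -0.02). Of 14 tested adaptors and anchors of mitochondrial transport 1 fell (median -0.22). Over all genes the median was 0.00, and 0.71% passed as higher and 2.36% as lower, so few calls would be found in lists of this size. Mtfr2, Pld6, Disc1 and Calcoco2 had too few counts to be tested.

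The gene that fell was Ogt, the O-GlcNAc transferase that modifies Trak proteins and arrests mitochondria when glucose is plentiful. It had 90.4, 81.9 and 95.9 CPM on polyribosomes and 195.4, 158.1 and 174.5 CPM in total RNA. Each polyribosome library was far below each total library, and 18.9% of all genes had groups without overlap in this direction. Its log2 fold change was -0.98 (SE 0.16, adjusted p = 0.0032 in edgeR) and -0.63 with the block and the GC and length offset (adjusted p = 1.81e-06). With the offset and no block, 0 genes of the 5 lists passed, so its call was lost there. Without the block its call was lost when polyribosome replicate 1 or 2, or total replicate 1 or 2, was left out, with 0 genes of the 5 lists called.

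Of the 17, 13, 16, 14 and 14 tested genes of the 5 lists, more passed with the replicate block. They were 6 as higher and 16 as lower, against 11.8% and 13.2% of all genes in that fit. The counts were 5 and 8 without replicate 1 (5.15% and 7.47% of all genes), 1 and 8 without replicate 2 (4.19% and 5.52%), and 9 and 19 without replicate 3 (11.7% and 12.8%). Among the fission regulators Mtfp1, an inner membrane protein that promotes fission, rose by 0.59 on the log2 scale (adjusted p = 0.00289 in edgeR). Ppp3cb, a catalytic subunit of the phosphatase calcineurin that activates Drp1, fell by 0.89 (adjusted p = 1.2e-08), and Gdap1, an outer membrane protein that promotes fission, fell by 0.80 (adjusted p = 1.36e-05). Phb2, a prohibitin of the inner membrane that stabilizes Opa1, rose by 0.69 (adjusted p = 0.00052 in edgeR) and was the one gene of its list to pass. With the block and the GC and length offset, Ppp3cb kept its call (-0.47, adjusted p = 0.000879 in edgeR). Mtfp1 (0.28, adjusted p = 0.203 in edgeR), Gdap1 (-0.43, adjusted p = 0.0171) and Phb2 (0.30, adjusted p = 0.168) lost theirs.

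Motor genes moved in both directions with the block, 2 higher and 6 lower of 16, against 11.8% and 13.2% of all genes. Dynll1 and Dctn2, a light chain of dynein and a subunit of dynactin, rose by 0.63 and 0.56 on the log2 scale (adjusted p = 4.08e-05 and 0.000263 in edgeR). Kif5c, a neuronal kinesin heavy chain that Trak1 binds, had 1420 ± 425.5 CPM on polyribosomes and 2169 ± 101 CPM in total RNA (SD, n = 3 each) and a blocked log2 fold change of -0.66 (adjusted p = 2.65e-05 in edgeR). The largest negative value was that of Myo19, an actin motor of mitochondria, at -1.62 (adjusted p = 0.000785 in edgeR), on 7 to 17 counts per library. Of the 14 adaptors and anchors 0 rose and 5 fell, Ogt and Mtx2 (-0.90, adjusted p = 0.00103 in edgeR) with the lowest values. With the block and the GC and length offset, Dynll1 (0.59, adjusted p = 2.94e-05 in edgeR) and Myo19 (-1.71, adjusted p = 0.00049) kept their calls. Dctn2 (0.25, adjusted p = 0.106 in edgeR), Kif5c (-0.40, adjusted p = 0.0101) and Mtx2 (-0.67, adjusted p = 0.0183) lost theirs.

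In the mitophagy list 2 genes rose and 2 fell with the block, of 14 tested, which is close to the 11.8% and 13.2% of all genes. Pink1, the kinase that marks damaged mitochondria and phosphorylates Miro, had 422.9, 379.1 and 508.7 CPM on polyribosomes and 256.5, 257.9 and 280.0 CPM in total RNA. Its groups did not overlap, as in 17.4% of all genes in this direction (blocked log2 fold change 0.71, adjusted p = 2.07e-06 in edgeR). Park2, encoding the ubiquitin ligase parkin that acts after Pink1, had 3.92, 3.01 and 5.56 CPM against 10.2, 7.37 and 22.1 CPM, on 20 to 41 counts per library (blocked log2 fold change -1.54, adjusted p = 5.96e-07 in edgeR). Fkbp8, an outer membrane receptor of mitophagy, rose by 0.62 (adjusted p = 3.72e-05), and Tbk1, a kinase of mitophagy receptors, fell by 0.74 (adjusted p = 0.000528). With the block and the GC and length offset, Park2 kept its call (-1.52, adjusted p = 3.93e-07 in edgeR). Pink1 (0.35, adjusted p = 0.0167 in edgeR) and Fkbp8 (0.05, adjusted p = 0.819) lost theirs. Tbk1 stayed just inside the threshold (-0.57, adjusted p = 0.00954 in edgeR). With block and offset, 3 genes of the 5 lists (17, 13, 16, 14 and 14 tested) passed as higher and 8 as lower. Of all genes, 8.95% and 7.08% did.

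**Figure D5:**
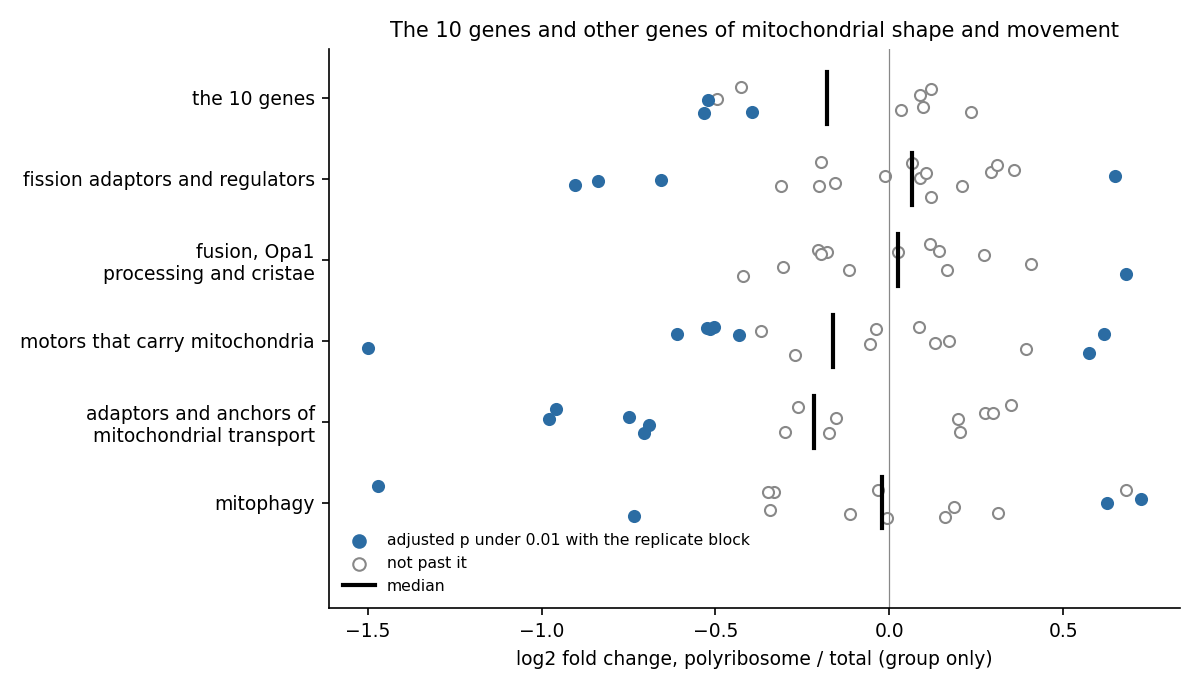
Log2 fold change, polyribosome over total, with group as the only term (horizontal axis) for the 10 genes and 5 lists of other genes of mitochondrial shape and movement, 1 point per gene; filled points passed an adjusted p of 0.01 with the replicate block and black bars are medians. The list medians lie between -0.22 and 0.07.

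Markers of the cells that the preparation could hold had counts in every library, with 0 markers at 0 in any. Map2 (2900 ± 186.6 CPM on polyribosomes, 2784 ± 291 CPM in total RNA, SD, n = 3 each) and Camk2a (4147 ± 1045 and 4070 ± 914.4 CPM), defining markers of neurons, differed by less than the spread between libraries. Of 12 neuronal markers 0 passed the threshold, against 0.71% of all genes as higher and 2.36% as lower. Neuronal markers summed to 14250 to 17830 CPM on polyribosomes and 12620 to 14840 CPM in total RNA, with 8 of 12 log2 fold changes positive, and 5 rose with the replicate block (Nrgn, Syp, Grin1, Dlg4 and Slc17a7). Summed astrocyte markers reached 45780 to 49980 CPM on polyribosomes and 35380 to 41060 CPM in total RNA, with positive log2 fold changes for 11 of 11 genes. Microglial markers summed to 1014 to 1174 against 649.2 to 915.6 CPM (10 of 10 positive), oligodendrocyte markers to 11350 to 15470 against 8196 to 11620 CPM (9 of 10 positive, Cldn11 called at 0.83 with adjusted p = 0.00751 in edgeR) and endothelial markers to 313.3 to 573.2 against 330.2 to 359.6 CPM (6 of 8 positive). The most abundant of these were Slc1a2 and Glul for astrocytes and Flt1 and Cldn5 for endothelial cells. Over all marker lists 21 genes rose and 1 fell (Gad1) with the replicate block, against 11.8% and 13.2% of all genes. Those that rose were 7 of 11 astrocyte, 4 of 10 oligodendrocyte, 4 of 10 microglial, 1 of 8 endothelial and 5 of 12 neuronal markers. The sums of astrocyte and of microglial markers did not overlap between the groups, and their part in the values of the 10 genes was not tested.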

How the data were processed

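After removal of ribosomal RNA and strand-specific library preparation, the authors aligned reads to GRCm38 (mm10) with STAR 2.5.2b and deposited raw, unnormalized read counts per protein-coding gene of Gencode vM6 basic. The remaining deposited columns hold the authors' own DESeq2 comparison (mean normalized signal, log2 fold change with standard error, Wald score, p-value and its adjustment) and were not used here.

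The 6 libraries were compared with edgeR 4.0.16 (R 4.3.3), using TMM scaling, filterByExpr and the quasi-likelihood test, group as the only term, with Benjamini-Hochberg adjustment over all 12255 genes tested and a threshold of 0.01. Alternatives were DESeq2 1.42.0, other scalings and filters, leaving out libraries, a replicate block, and an offset from splines of GC content and length (taken from Gencode vM21 transcripts, which covered 99.6% of the tested genes). The scripts were tested on simulated data. Deviations from the group means correlated by 0.37, 0.26 and 0.38 between libraries with the same number and by -0.35 to 0.11 otherwise. With the shared header prefixes in the labels, they were taken as pairs, though the methods do not tie the numbers to preparations. Replicates differed by more than sampling noise (chi-square per degree of freedom 3.49 to 21.4).

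The genes and lists were chosen with earlier results of these data known. From each list the text names genes past the threshold (up to 3 per direction), the 2 highest and 2 lowest past it with the replicate block, and for markers the 2 with the most counts, some of which are not reported here. Cldn11, Gad1 and the neuronal markers that rose with the block were named after their values were seen.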

Additional observations from a re-analysis of the deposited data

How the results depend on the processing

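Over all genes tested, 87 were called higher and 289 lower on polyribosomes. The counts were 321 and 372 in DESeq2, 83 and 272 with DESeq2's size factors, 42 and 366 with total counts alone, 476 and 566 over all genes with at least 1 count, and 76 and 263 with at least 10 counts in every library. They were 1441 and 1622 with the replicate block, 30 and 90 with the GC and length offset, and 1093 and 864 with both. Settings added after seeing the data were leaving out both libraries of a replicate number, the block without replicate 1 (627 and 910), 2 (518 and 682) or 3 (1470 and 1602) and DESeq2 with the block (693 and 599). Leaving out libraries gave 0 to 453 higher and 0 to 658 lower, with 0 and 0 without replicate 2 (1069 and 1277 at an unadjusted p under 0.05 in edgeR).

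Of the 10 genes, 0 were called higher in any setting. The lower calls went from 0 to 3 with the block, and were 1 and 3 with the block without replicate 1 or 3, and 0 to 2 when libraries were left out.

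For the pathway lists, 0 higher and 1 lower calls became 2 and 3 in DESeq2, 1 and 5 over all genes with at least 1 count, 6 and 16 with the replicate block, 0 and 0 with the offset and 3 and 8 with both. The block without replicates 1, 2 and 3 gave 5 and 8, 1 and 8, and 9 and 19, DESeq2 with the block 4 and 7, and leaving out libraries 0 to 3 and 0 to 6. The 1 higher and 0 lower marker calls became 7 higher in DESeq2, 0 with total counts alone, 9 over all genes with at least 1 count, 21 higher and 1 lower with the replicate block, 0 with the offset and 22 with both. The block without replicates 1, 2 and 3 gave 10, 8 and 20 higher (2 lower without replicate 3), DESeq2 with the block 18, and leaving out libraries 0 to 10 higher and 0 lower.

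Signs turned for 4 genes that were called in no setting. Fis1 (0.10) was at -0.014 with total counts alone, -0.29 with the offset, -0.26 with block and offset, -0.0093 with the block without replicate 3, and -0.024 to 0.23 when libraries were left out. Mfn1 (0.09) was at -0.017 with total counts alone. Rhot2 (0.03) was at -0.075 with total counts alone, -0.15 with the offset, -0.12 with block and offset, -0.0896 with the block without replicate 1, and -0.16 to 0.26 when libraries were left out. Trak1 (0.12) was at -0.017 with the block without replicate 1, and -0.026 to 0.28 when libraries were left out. The other 6 genes kept their sign in every setting, with ranges when libraries were left out of -0.66 to -0.42 (Dnm1l), -0.68 to -0.38 (Opa1), -0.59 to -0.25 (Mff), -0.63 to -0.31 (Rhot1), -0.56 to -0.21 (Trak2) and 0.16 to 0.27 (Mfn2). The 4 ratios kept their direction with 0.5 added to the counts and when single libraries were left out. Leaving out 1 library moved each by over 1.5 times. Pairing the replicates gives the same mean difference by arithmetic, so it could not test the direction. The GC and length offset was not run for the ratios. With block and offset, the log2 fold change was 0.17 for Mfn2 and 0.33 for Mfn1, the reverse order. It was -0.12 for Rhot2 and -0.16 for Rhot1, and -0.16 for Trak2 and 0.01 for Trak1. The log2 differences were 0.017 to 0.21 (Mfn2 to Mfn1), 0.26 to 0.69 (Rhot2 to Rhot1), -0.65 to -0.35 (Trak2 to Trak1) and -0.34 to -0.15 (fission to fusion).

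With the median in place of the longest transcript length, levels on polyribosomes in CPM per kilobase were 21.5 (Dnm1l), 72.4 (Fis1), 34.6 (Mff), 41.9 (Mfn1), 46.9 (Mfn2), 28.6 (Opa1), 7.29 (Rhot1), 31.7 (Rhot2), 95.4 (Trak1) and 103.2 (Trak2). The causes of these shifts were not tested. Depth limits Rhot2 most, with 16 counts in total replicate 3.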
